A study of Homo sapiens with 35 samples.

Results

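The Notch ligands DLL1, DLL3 and JAG1, the receptors NOTCH1, NOTCH2 and NOTCH3, the glycosyltransferase LFNG and the target genes HES1 and HEY1 were followed in human embryonic stem cells on the way to mesendoderm, from which mesoderm and endoderm both arise. These 9 genes were chosen by name from the 58581 genes of the deposited count table, and all 9 passed the filter on low counts. The cells are H9, an established human embryonic stem cell line, seeded as single cells. BA libraries came from cells in E6 medium with BMP4 and Activin A (40 ng/mL by the label, which does not say whether that is the dose of each), E6 libraries from E6 medium alone, E8 libraries from E8, the medium in which the line was kept, and t0 libraries from cells before any of the 3 treatments. Poly(A) RNA was sequenced every 6 h up to 48 h, giving 12 BA, 10 E6, 10 E8 and 3 t0 libraries. BA at 48 h, E6 at 48 h, E8 at 48 h, BA at 24 h and t0 hold 3 replicates each, and the other 20 groups hold 1 library each. All groups are 1 cell line. Whether the replicates came from separate cultures is not stated in the labels, so p-values measure the spread between these libraries, which may be technical.

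Notch signalling passes between touching cells. A DLL or JAG ligand on one cell pulls on a NOTCH receptor of its neighbour, ADAM proteases and gamma-secretase then cut the receptor, and the freed intracellular domain joins the DNA-binding protein RBPJ and MAML coactivators to switch on repressors of the HES and HEY families. FURIN cuts the receptor once on its way to the cell surface, and LFNG adds a sugar to the receptor that changes which ligands it answers to. In mouse embryos DLL1, DLL3, LFNG and HES genes act in the presomitic mesoderm, where several of them are expressed in waves that time the somites.

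The HES1 promoter is shown because HES1 is the textbook target of the pathway. It is the RefSeq entry at chr3:194135898-194136197 on the plus strand of GRCh38.p14, 250 bases before to 50 after the gene's start, with matches to the RBPJ motif GTGNGAA on either strand in capitals.
HES1: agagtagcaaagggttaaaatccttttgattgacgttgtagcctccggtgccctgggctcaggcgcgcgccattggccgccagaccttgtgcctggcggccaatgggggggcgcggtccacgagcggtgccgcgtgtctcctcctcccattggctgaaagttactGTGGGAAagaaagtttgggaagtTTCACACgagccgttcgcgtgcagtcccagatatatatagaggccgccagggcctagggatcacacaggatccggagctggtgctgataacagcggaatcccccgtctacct
Counted from 1 at the left end, the first match starts at position 166 on the plus strand and is also a match to the stricter motif GTGGGAA, and the second starts at position 189 and is read on the minus strand. Of 35116 RefSeq promoter windows of 300 bases, 13.8% held GTGNGAA at least once, 1.26% held it 2 or more times, and 6.25% held GTGGGAA. The tables held a promoter entry for 6 of the 9 genes. The windows of JAG1, NOTCH1, NOTCH2, NOTCH3 and LFNG held neither motif, which says only that these letters are absent from those 300 bases.

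The 35 libraries held 11793453 to 37191969 counts. Libraries of replicate 1 and the single libraries, 25 in all and here called the time series, stood apart from the 10 libraries of replicates 2 and 3: within a group, replicates 2 and 3 correlated across genes at r = 0.993 to 0.995, and replicate 1 with either at 0.896 to 0.935. No 2 replicates agreed within sampling noise (chi-square per degree of freedom 11.7 or more). The E6 library at 18 h also stood apart. Its median r to all other libraries of the time series, BA and t0 included, was 0.941. Each other E6 or E8 library of the time series had a median of 0.977 to 0.987. Primitive streak markers (8 genes) summed to 54.2 to 2900 CPM (counts scaled to a common library total, with no correction for gene length) in BA, 3.84 to 15.6 in E6 and 3.56 to 12.3 in E8 over the time series, and each of 6 pluripotency markers had a median of at least 1 CPM in BA, E6, E8 and t0. These markers did not move alike in the time series. In BA, SOX2, DPPA4 and LIN28A were below E6 at all 8 hours. POU5F1, NANOG and L1TD1 were above E6 at 5, 4 and 3 of 8 hours, and the highest POU5F1 level of any library, 3280 CPM, was in BA. SOX2 in BA read 165 CPM at 12 h. At 48 h it read 3.51, 162 and 131 CPM in replicates 1, 2 and 3 of BA. E6 and E8 held 203 to 404 CPM over the time series. In replicates 2 and 3 at 48 h SOX2 read 309 and 301 CPM in E6, and 144 and 133 CPM in E8, near BA. DPPA4 in BA read 776 CPM at 12 h and 209, 405 and 410 CPM in the replicates at 48 h. The part of this gap between replicates in the levels of JAG1, LFNG and NRARP, which at 48 h in BA were also lowest in replicate 1, was not tested. At 48 h the streak sum of BA was 1940 CPM at most, in replicate 1, and 175 and 176 CPM in replicates 2 and 3, so the libraries of BA differed in the level of these markers.

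**Figure D1:**
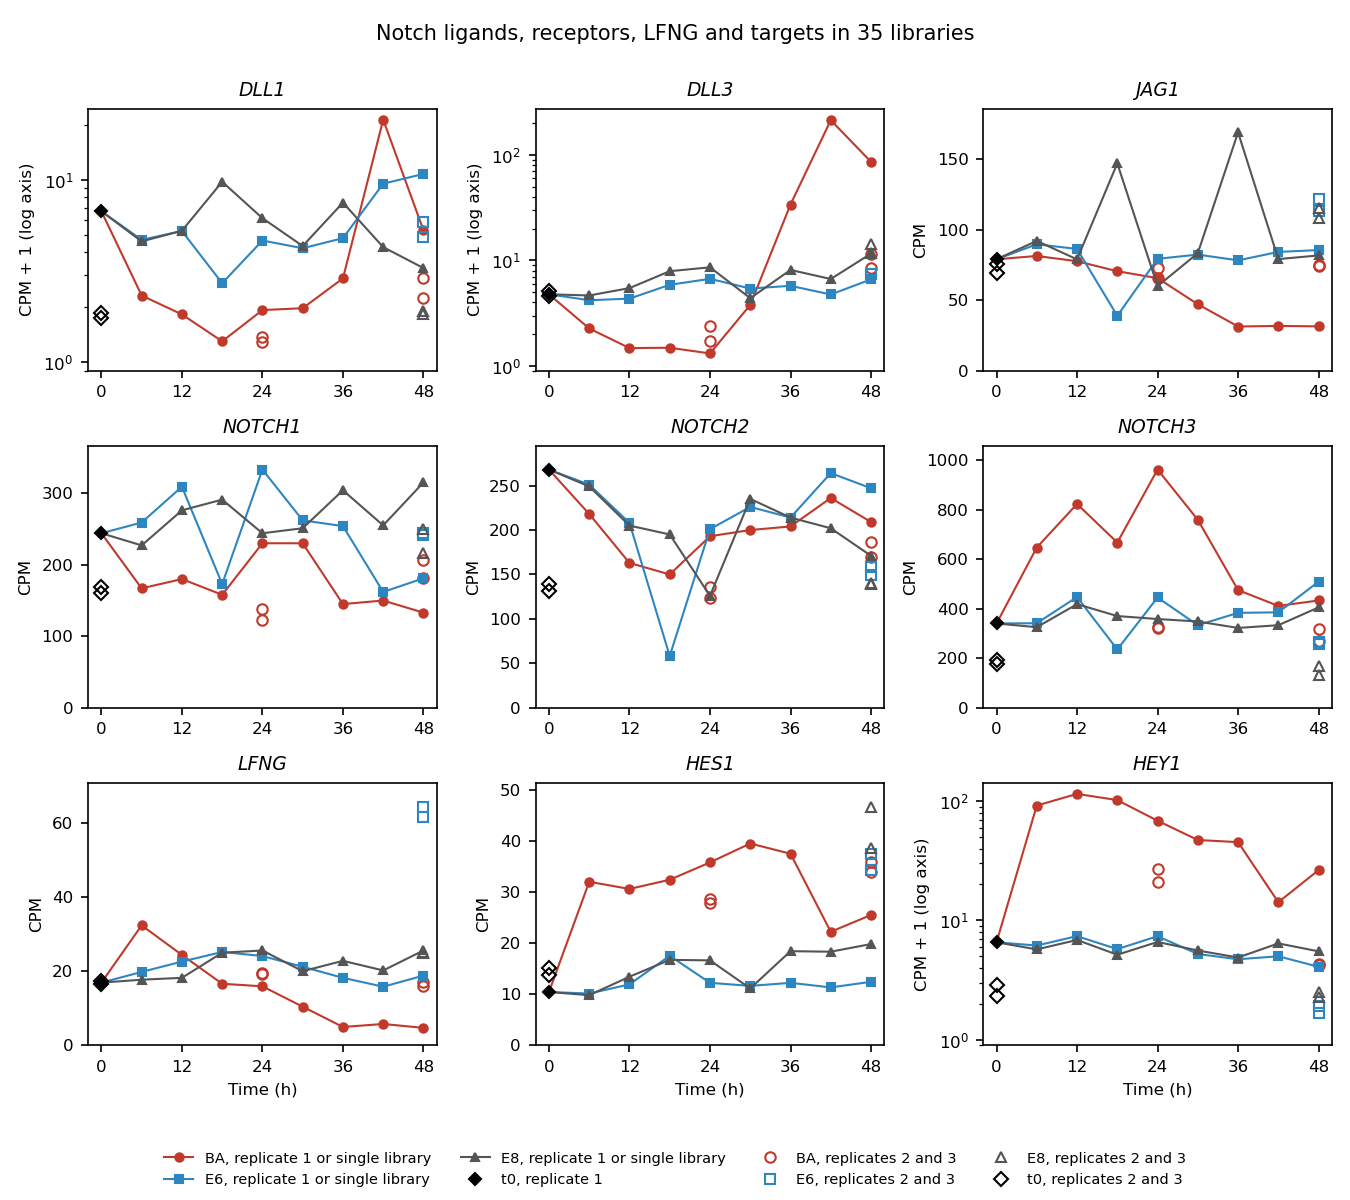
Level of each gene in CPM (vertical axis; log axis with 1 CPM added for DLL1, DLL3 and HEY1) against hours of culture (horizontal axis) for BA, E6, E8 and t0; filled marks joined by lines are the time series and open marks are replicates 2 and 3. HEY1, HES1 and NOTCH3 were high in BA from 6 h, DLL3 in BA stood above both control media from 36 h, and JAG1 and LFNG in BA ended the time series below them.

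Over the time series the 9 genes took separate courses in BA. HEY1, HES1 and NOTCH3 were higher in BA than in E6, JAG1 and LFNG were lower on average, and DLL3 was lower early and higher late. The difference between the media was tested for every gene with the edgeR quasi-likelihood F-test of a curve over time (16 libraries, 1 per medium and time), with Benjamini-Hochberg adjustment over 17938 genes. These 6 of the 9 genes were called at an adjusted p below 0.05, against 28.6% of all genes tested, and DLL1, NOTCH1 and NOTCH2 were not. The median of the 9 averaged log2 differences was -0.14, beside -0.01 over all genes tested. A change of the difference with time was called for 3 of the 9, DLL3, JAG1 and LFNG, against 8.28% of all genes. With all libraries of both media and a term for the replicate set 7 genes were called for the difference, DLL1 joining the 6, against 29.3% of all genes, and 3 for its change with time, DLL3, LFNG and HEY1 (adjusted p 0.0411), against 3.87%. JAG1 was not among these (0.0908). Since these are bulk samples, fewer cells expressing a gene and less RNA per cell cannot be told apart.

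**Figure D2:**
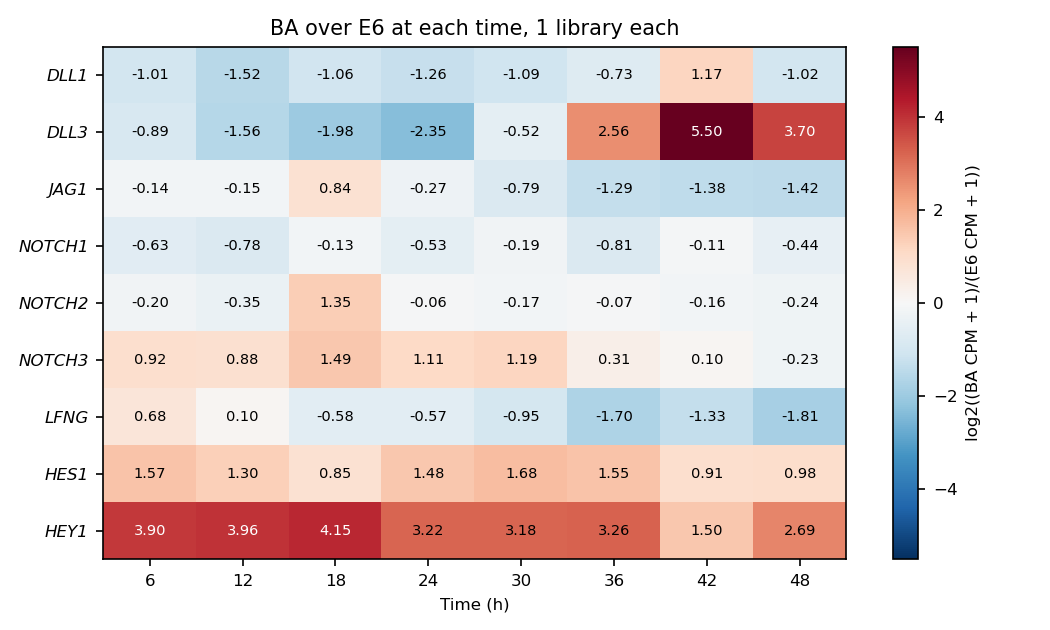
Log2 ratio of BA over E6 with 1 CPM added to both (colour and printed value) for each gene (rows) at each hour (columns), 1 library per medium and time. HEY1 is positive in all 8 columns, and DLL3 turns from -2.35 at 24 h to 5.50 at 42 h.

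DLL3 is a Delta ligand that in mammals lacks the ability to activate receptors on neighbouring cells and in mouse is needed for somite formation. In BA it read 1.26 CPM at 6 h, 0.474 at 12 h, 0.484 at 18 h, 0.31 at 24 h, 2.78 at 30 h, 32.9 at 36 h, 213 at 42 h and 85.1 at 48 h. E6 held 3.19 to 5.69 CPM and E8 3.38 to 10.6 CPM over the same hours, so at every hour to 30 h BA lay below both media and from 36 h on above both. The low values rest on few reads: the 0.31 CPM of BA at 24 h is 6 counts, with an exact Poisson 95% interval of 0.114 to 0.675 CPM for counting error only. Relative to E6, DLL3 was 18.3-fold lower in BA at 24 h and 56.9-fold higher at 42 h. The medium effect was called with an adjusted p of 1.79e-05 (edgeR) and its change with time with 0.000105.

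The late DLL3 level differed between the replicate sets. BA at 48 h read 85.1, 10.4 and 7.43 CPM in replicates 1, 2 and 3, E6 at 48 h 5.61, 6.37 and 6.35 CPM, E8 at 48 h 10.6, 13.2 and 10.8 CPM, BA at 24 h 0.31, 1.41 and 0.732 CPM, and t0 3.77, 4.13 and 3.59 CPM. All BA libraries at 48 h lay above those of E6 and of BA at 24 h, but only replicate 1 lay above E8. From BA at 24 h to BA at 48 h the log2 difference was 5.44 ± 0.91 (SE, n = 3 each; edgeR adjusted p 0.0253), the single call among the 9 genes, against 0.455% of 21554 genes tested. It was 5.02 (adjusted p 0.00694) with the replicate number as a block and 3.06 (1.54e-05) in replicates 2 and 3 alone. That call was lost without any 1 of the BA libraries at 24 h, with adjusted p up to 0.177. Between BA and E6 at 48 h DLL3 differed by 2.54 ± 0.79 on the log2 scale and was not called (adjusted p 0.114). Without replicate 1 of BA the difference was 0.53 (adjusted p 0.732), so its size rests on that library.

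Genes of nascent and presomitic mesoderm were high in the same BA libraries as DLL3. MESP2, a segmentation factor, read 11.3, 52.4 and 24.6 CPM at 36, 42 and 48 h in the time series, and 3.83 and 2.38 CPM in replicates 2 and 3 of BA at 48 h. TBX6, a T-box factor of presomitic mesoderm, read 10.4, 47.4 and 18.1 CPM at those hours and 9.6 and 7.59 CPM in replicates 2 and 3, where E6 at 48 h read 8.35 and 8.81 CPM. The sum of that list (5 genes) was 1.07 to 152 CPM in BA and 0.597 to 2.42 CPM in E6 over the time series. Of its defining genes, MSGN1 never passed 0.121 CPM and RIPPLY2 never passed 0.442 CPM in any library. Markers of other lists were also high in these BA libraries. EOMES (1140 CPM), MIXL1 (1150 CPM) and T (346 CPM) of the streak list peaked at 42 h, while WNT3 and NODAL peaked at 30 h. Definitive endoderm markers (5 genes) summed to 34.9 to 4920 CPM in BA and 7.86 to 14.7 CPM in E6 over the time series. CER1 carried most of the highest sum, with 4440 CPM at 42 h. SOX17 and GATA6 of that list peaked at 48 h. The part of any of these genes in the DLL3 level was not tested.

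DLL1, an activating Delta ligand of presomitic mesoderm in mouse, had the lowest median level per length of the 9 genes in each medium. In BA it read 1.32 CPM at 6 h, 0.302 at 18 h, 1.88 at 36 h, 20.3 at 42 h and 4.28 at 48 h, and it lay below E6 at 7 of 8 hours. E6 ranged from 1.71 to 9.74 CPM and E8 from 2.28 to 8.73 CPM. Averaged over time BA was lower by a log2 difference of -1.17 (edgeR adjusted p 0.126, not called). Without the BA library at 42 h it was -1.69, with an adjusted p of 0.000574, and without both 48 h libraries -1.34 (0.00622). With all libraries and a term for the replicate set the adjusted p was 0.00792. At 48 h DLL1 read 4.28, 1.91 and 1.24 CPM in BA, against 9.74, 3.88 and 4.86 CPM in E6, with replicate 1 the highest in both. The difference of -1.28 ± 0.83 had an adjusted p of 0.563 without a block and 0.0141 with it. It was -1.96 without replicate 1 of BA and -0.81 without replicate 1 of E6. Part of the DLL1 locus (chr6:170282206-170306565, GRCh38) overlaps another gene on the opposite strand, and since the strand setting of the counting is not given in the sources used here, the reads of the overlap cannot be told apart; the same holds for JAG1 and NOTCH1.

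JAG1, a ligand of the Jagged family, was lower in BA than in E6 on average over the time series. It read 81.3 CPM at 6 h, 65.6 at 24 h, 47.1 at 30 h, 31.3 at 36 h and 31.4 at 48 h. E6 held 78.2 to 89.6 CPM at every hour but 18 h, where the library that stands apart read 38.9 CPM. E8 ranged from 59.9 to 169 CPM, with 147 at 18 h and 169 at 36 h above all other libraries. The averaged log2 difference of BA from E6 was -0.60 (edgeR adjusted p 0.00146), and its change with time had an adjusted p of 0.0214, which was lost in 6 of 8 repeats that each left out 1 hour. Replicates 2 and 3 of BA at 48 h stood higher than replicate 1: JAG1 read 31.4, 74.8 and 74.4 CPM in BA, against 85.5, 122 and 113 CPM in E6. At t0 JAG1 read 79.0, 69.2 and 75.4 CPM. Replicates 2 and 3 of BA at 48 h lay within that range, and those of E6 lay above it. BA was below E6 in all 3 replicate pairs and the groups did not overlap. The difference was -0.83 ± 0.28 (edgeR adjusted p 0.144 without a block, 0.0186 with it). Without replicate 1 of BA it was -0.54 (adjusted p 0.255).

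NOTCH3 had the highest level of the 3 receptors in every BA library, in CPM and per length. In BA it read 648 CPM at 6 h, 824 at 12 h, 668 at 18 h, 963 at 24 h, 760 at 30 h, 476 at 36 h, 412 at 42 h and 434 at 48 h. E6 ranged from 236 to 510 CPM and E8 from 323 to 419 CPM, so the first 5 BA libraries lay above every library of both media. BA over E6 was 1.84 to 2.82 up to 30 h and 0.851 at 48 h. The averaged log2 difference was 0.72 (edgeR adjusted p 0.00368), which became 0.61 (0.458) when all libraries were pooled with no term for the replicate set, and had an adjusted p of 0.00222 with that term. At 24 h NOTCH3 read 963, 326 and 324 CPM in BA, against 341, 193 and 179 CPM at t0. Within each replicate number BA was higher, but replicate 1 of t0 lay above replicates 2 and 3 of BA. The difference of 1.20 ± 0.54 was not called without a block (adjusted p 0.508) and was called with it (0.00323). Without replicate 1 of BA at 24 h it was 0.45 (adjusted p 0.931).

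NOTCH1 and NOTCH2 were not called between the media over time. NOTCH1 ranged from 133 to 230 CPM in BA, 162 to 333 CPM in E6 and 227 to 315 CPM in E8, and BA was below E6 and below E8 at all 8 hours. The averaged difference from E6 was -0.46 on the log2 scale (edgeR adjusted p 0.176), and -0.58 (0.00445) without the E6 library at 18 h, so that library decides the call. NOTCH2 ranged from 150 to 236 CPM in BA, 58.3 to 264 CPM in E6 and 126 to 249 CPM in E8. The lowest of these was again the E6 library at 18 h, and without it the next E6 library read 201 CPM. NOTCH2 was not called in any of the 5 group comparisons or in either time course without a block (smallest unadjusted p 0.283; DESeq2 called it in none of the group comparisons), and its averaged difference of BA from E6 was -0.04 (edgeR adjusted p 0.858). In replicates 2 and 3 alone it was higher in BA at 48 h than in BA at 24 h, by 0.47 (adjusted p 0.000708). NOTCH2 has near-identical partial copies in the genome, and how reads were split among them is not given, so its counts are uncertain.

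LFNG stood above both control media in BA at first and below them later. It read 32.4 CPM at 6 h, 24.4 at 12 h, 16.6 at 18 h, 15.9 at 24 h, 10.4 at 30 h, 4.9 at 36 h, 5.71 at 42 h and 4.66 at 48 h. E6 ranged from 15.8 to 25.2 CPM and E8 from 17.7 to 25.6 CPM, so BA lay above both at 6 and 12 h and below both from 18 h on. The averaged log2 difference from E6 was -0.82 (edgeR adjusted p 2.63e-05), and its change with time had an adjusted p of 0.0011.

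At 48 h LFNG was the single gene of the 9 called between BA and E6, against 3.52% of 21554 genes tested. It read 4.66, 17.1 and 16.1 CPM in BA, against 18.8, 61.6 and 64.5 CPM in E6. BA was lower in each replicate pair and the groups did not overlap, although replicate 1 was the lowest library of each medium. At t0 LFNG read 16.9, 17.3 and 16.6 CPM. Replicates 2 and 3 of BA at 48 h were near that level and those of E6 above it, while replicate 1 of BA lay below it. The log2 difference was -1.95 ± 0.47 (edgeR adjusted p 0.0424), -1.93 (0.00464) with the replicate block and -1.98 (4.88e-08) in replicates 2 and 3 alone. The call was lost without any 1 of 5 of the 6 libraries, all but replicate 1 of E6, with adjusted p up to 0.143. E8 read 25.6, 25.2 and 24.9 CPM, between BA and the replicates 2 and 3 of E6.

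HEY1, a bHLH repressor and a direct target of Notch, had the largest averaged difference between BA and E6 of the 9 genes. In BA it read 90.8 CPM at 6 h, 114 at 12 h, 101 at 18 h, 67.5 at 24 h, 46.2 at 30 h, 44.3 at 36 h, 13.2 at 42 h and 25.4 at 48 h. In the time series the 16 libraries of E6 and E8 held 3.08 to 6.38 CPM, and none reached the lowest of the 8 BA libraries. BA over E6 was 17.6-fold at 6 h, 21.2-fold at 18 h and 3.29-fold at 42 h. The averaged log2 difference of 3.53 had an adjusted p of 1.18e-07 (edgeR), and it was called under each of 15 alternative settings, with averaged differences of 3.34 to 3.75.

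HEY1 also differed between the replicate sets at the same hour. At 24 h it read 67.5, 25.9 and 20 CPM in BA, against 5.55, 1.3 and 1.87 CPM at t0, so the groups did not overlap and BA was higher within each replicate number. The difference of 3.71 ± 1.04 on the log2 scale was not called without a block (edgeR adjusted p 0.132) and was called with it (3.82, adjusted p 3.35e-05) and in replicates 2 and 3 alone (3.91, 6.17e-07). Of the 9 genes, 0 were called for BA at 24 h with t0 without a block, against 1.57% of genes tested; 5 had an unadjusted p below 0.05, DESeq2 called 1, and the block called 4, DLL1, NOTCH3, HES1 and HEY1, against 8.95% of genes. At 48 h HEY1 read 25.4, 3.31 and 3.24 CPM in BA, against 3.08, 0.906 and 0.682 CPM in E6. BA was higher in each replicate pair by 2.86 ± 1.01 on the log2 scale (adjusted p 0.172, and 0.000322 with the block). Without replicate 1 of BA the difference was 1.1 (adjusted p 0.719), so its size rests on that library. From 24 h to 48 h in BA it fell with the block (-2.23, adjusted p 0.00123) and was not called without it (-1.78 ± 0.96, adjusted p 0.61). That value was -1.04 without replicate 1 of BA at 24 h and -3.54 without replicate 1 of BA at 48 h.

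HES1, a bHLH repressor of neurogenesis, was higher in BA than in both control media throughout the time series. It read 32.0 CPM at 6 h, 30.6 at 12 h, 32.4 at 18 h, 35.8 at 24 h, 39.5 at 30 h, 37.5 at 36 h, 22.2 at 42 h and 25.5 at 48 h. In the time series E6 and E8 held 9.78 to 19.8 CPM, all below the lowest BA library. BA over E6 ranged from 1.85 to 3.40, with an averaged log2 difference of 1.38 (edgeR adjusted p 3.27e-06), called under each of 15 alternatives. At 48 h, by replicate, HES1 read 25.5, 35.9 and 34.0 CPM in BA, against 12.4, 37.4 and 34.3 CPM in E6 and 19.8, 46.7 and 38.6 CPM in E8. BA was above E6 in replicate 1 only, and the difference at 48 h was 0.18 ± 0.39 (adjusted p 0.966, and 0.604 with the block). From t0 HES1 was also higher in E8 at 48 h, by 1.47 ± 0.40 (adjusted p 0.119, and 0.00919 with the block), where t0 read 10.4, 15.2 and 13.8 CPM. Without replicate 1 of E8 it was called (1.74, adjusted p 0.0378). At 24 h BA exceeded t0 by 1.27 ± 0.40 (adjusted p 0.192, and 0.0225 with the block).

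**Figure D3:**
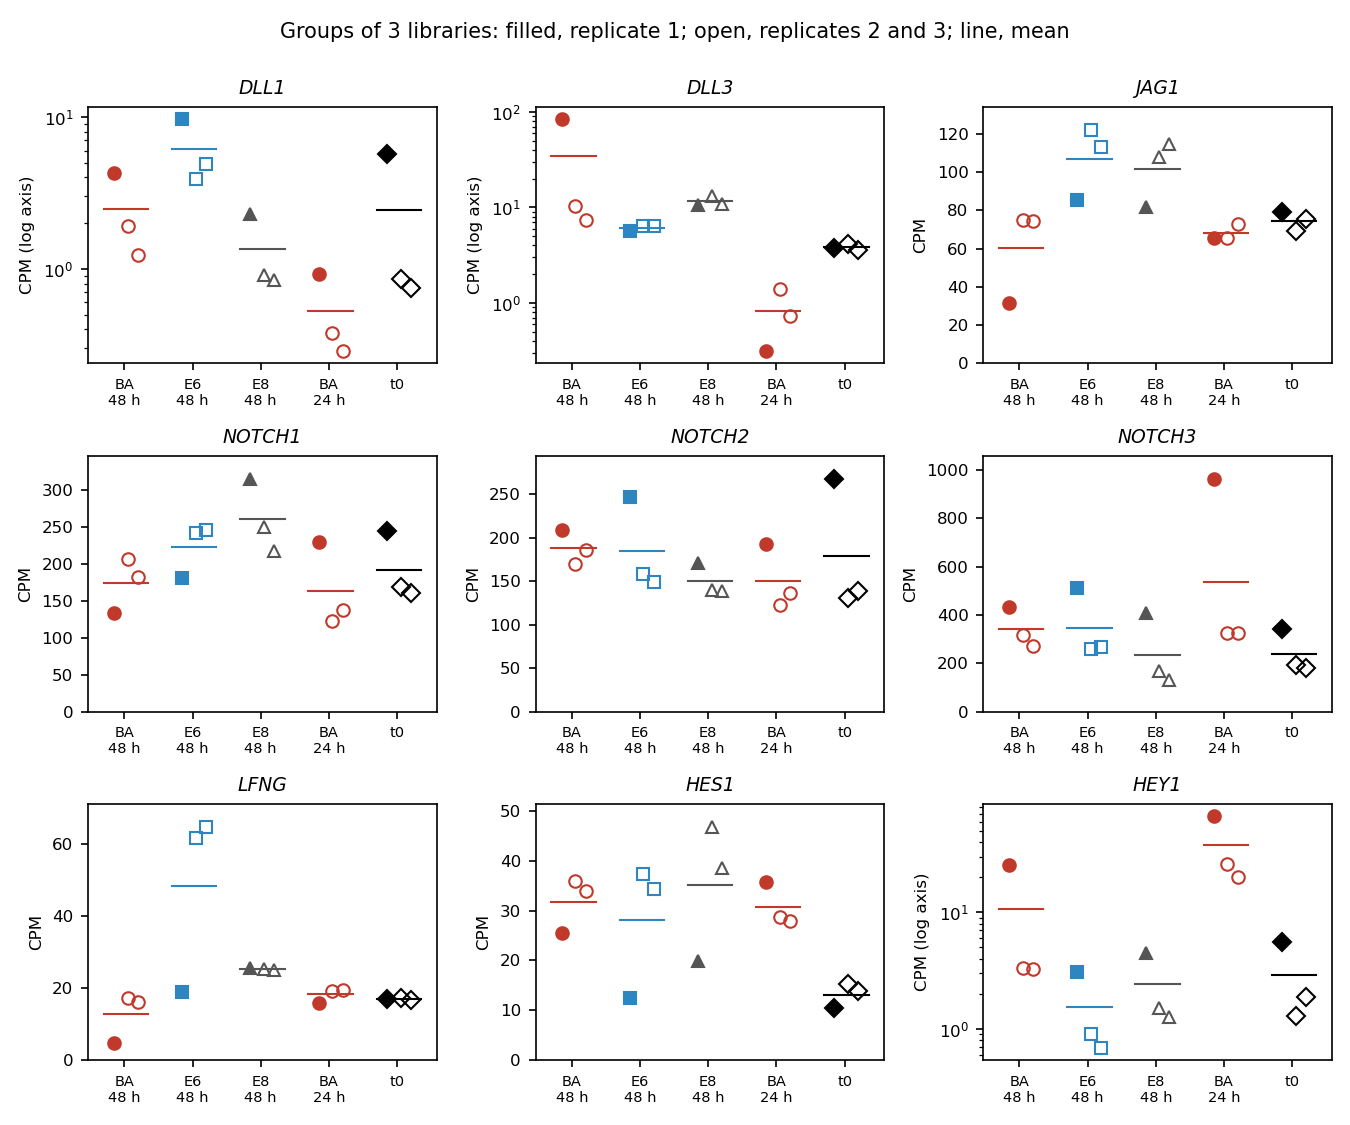
CPM of each gene in the 5 groups of 3 libraries (log axis for DLL1, DLL3 and HEY1); filled marks are replicate 1, open marks replicates 2 and 3, and lines are means. LFNG at 48 h is lower in BA than in E6 within each replicate set, while HES1 in E6 at 48 h is 12.4 CPM in replicate 1 and 34.3 and 37.4 CPM in the other libraries.

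Across the replicated groups, the counts of calls changed with the replicate block. Libraries with the same replicate number deviated alike from their groups, as given with the methods, so the blocked counts are set beside the others. Whether replicates 2 and 3 are matched by number across groups was not tested. Between BA and E6 at 48 h 1 gene was called without the block and 4 with it (DLL1, JAG1, HEY1 and LFNG), against 22.1% of all genes with the block. For BA at 48 h with BA at 24 h the counts were 1 and 3 (DLL1, DLL3 and HEY1), against 10% with the block. For E6 with E8 at 48 h they were 0 and 1, against 0.144% and 2.84%; 1 gene had an unadjusted p below 0.05, and DESeq2 called 0. That gene was DLL1, at 9.74, 3.88 and 4.86 CPM in E6, against 2.28, 0.915 and 0.842 CPM in E8 (2.21 ± 0.86; edgeR adjusted p 0.829, and 0.00656 with the block). For E8 at 48 h with t0 the counts were 0 and 1 (HES1), against 0.139% and 25.6%; 1 gene had an unadjusted p below 0.05, and DESeq2 called 1. In replicates 2 and 3 alone, 5 of the 9 genes were called for BA with E6 at 48 h, against 36.7% of all genes, and 6 for BA at 24 h with t0, against 20.7%. The same 2 libraries a group gave 6 calls for BA at 48 h with BA at 24 h (34.1% of genes), 5 for E6 with E8 (18.4%) and 5 for E8 with t0 (51.3%). These replicates are close to each other, and whether they are separate cultures is not stated.

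E6 with E8 gave 0 calls of 9 in the time series by edgeR, both for the difference and for its change with time, each against 0.0228% of 17530 genes; DLL1 had an unadjusted p below 0.05 (0.012) and an adjusted p of 1. With all libraries and a term for the replicate set DLL1 was called (adjusted p 0.00897), against 1.92% of genes, and so was its change with time (0.0098), against 1.25%. DLL1 read 8.5 CPM at 42 h and 9.74 CPM at 48 h in E6, where E8 read 3.27 and 2.28 CPM.

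Scaled by exon length, NOTCH3 had the highest median level of the 9 genes in each medium. Over the 8 hours of the time series in BA the median per kilobase was 70.0 CPM for NOTCH3, 15.7 for NOTCH1 and 12.0 for NOTCH2. In E6 it was 40.9, 24.7 and 13.1 CPM per kilobase, and in E8 37.7, 25.6 and 12.1. The medians of the receptors had the same order in all 3 media. The ranges of NOTCH1 and NOTCH2 overlapped in BA and in E6, and those of NOTCH3 and NOTCH1 in E6. Among the other genes in BA the medians per kilobase were 17.6 CPM for HEY1, 15.6 for HES1, 6.06 for JAG1, 3.86 for LFNG, 0.772 for DLL3 and 0.356 for DLL1. In E6 HEY1 stood at 1.39, HES1 at 5.83, JAG1 at 8.95, LFNG at 6.00, DLL3 at 1.75 and DLL1 at 1.16. The ranges of DLL3 and DLL1 in BA ran from 0.118 to 81.4 and from 0.0937 to 6.30 CPM per kilobase, so their place in the order changed with the hour.

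Of 52 other genes of the pathway, 49 could be tested in the group comparisons and 45 in the time course of BA with E6. In the time course 8 were higher and 7 lower in BA, against 14.7% of all genes called higher and 13.9% called lower, and the median of the 45 was 0.04 beside -0.01 over all genes. With all libraries and a term for the replicate set 10 were higher and 7 lower, against 29.3% of all genes called in either direction. At 48 h between BA and E6 1 was higher and 1 lower without the block, against 2.03% of all genes called higher and 1.49% called lower. With the block 10 were higher and 5 lower, against 22.1% of all genes called in either direction. At 24 h from t0, 2 were higher and 1 lower without the block, against 1.26% and 0.315%. With the block 6 were higher and 3 lower, against 8.95% of all genes called in either direction. In the other 3 group comparisons and in E6 with E8 over time none was called by edgeR without a block.

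FURIN, the convertase that cuts NOTCH receptors before they reach the surface, was higher in BA. It ranged from 103 to 303 CPM in BA over the time series, 57.3 to 89.7 CPM in E6 and 59.9 to 82.2 CPM in E8, with no overlap. At 48 h it read 139, 168 and 159 CPM in BA, against 60.1, 49.9 and 47.6 CPM in E6 (log2 difference 1.58 ± 0.20, edgeR adjusted p 0.00142). At 24 h it read 296, 190 and 185 CPM in BA, against 70.1, 66.2 and 71.4 CPM at t0 (1.73 ± 0.20, adjusted p 0.00133, and 0.0558 in a fit of these 6 libraries alone). FURIN was higher in BA within every replicate number. HES3, a HES family repressor, was lower in BA: it held 0 to 2.21 CPM in BA over the time series, 14.2 to 47.9 CPM in E6 and 12.8 to 26.6 CPM in E8. At 48 h it read 0.0639, 0.522 and 0.476 CPM in BA, against 47.9, 25.8 and 32.9 CPM in E6 (-6.56 ± 1.08, adjusted p 0.00607). At 24 h it read 0.31, 0.282 and 0.382 CPM in BA, against 11.8, 7.61 and 9.69 CPM at t0 (-4.86 ± 1.01, adjusted p 0.0344; the call did not hold when any 1 of the 6 libraries was left out).

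**Figure D4:**
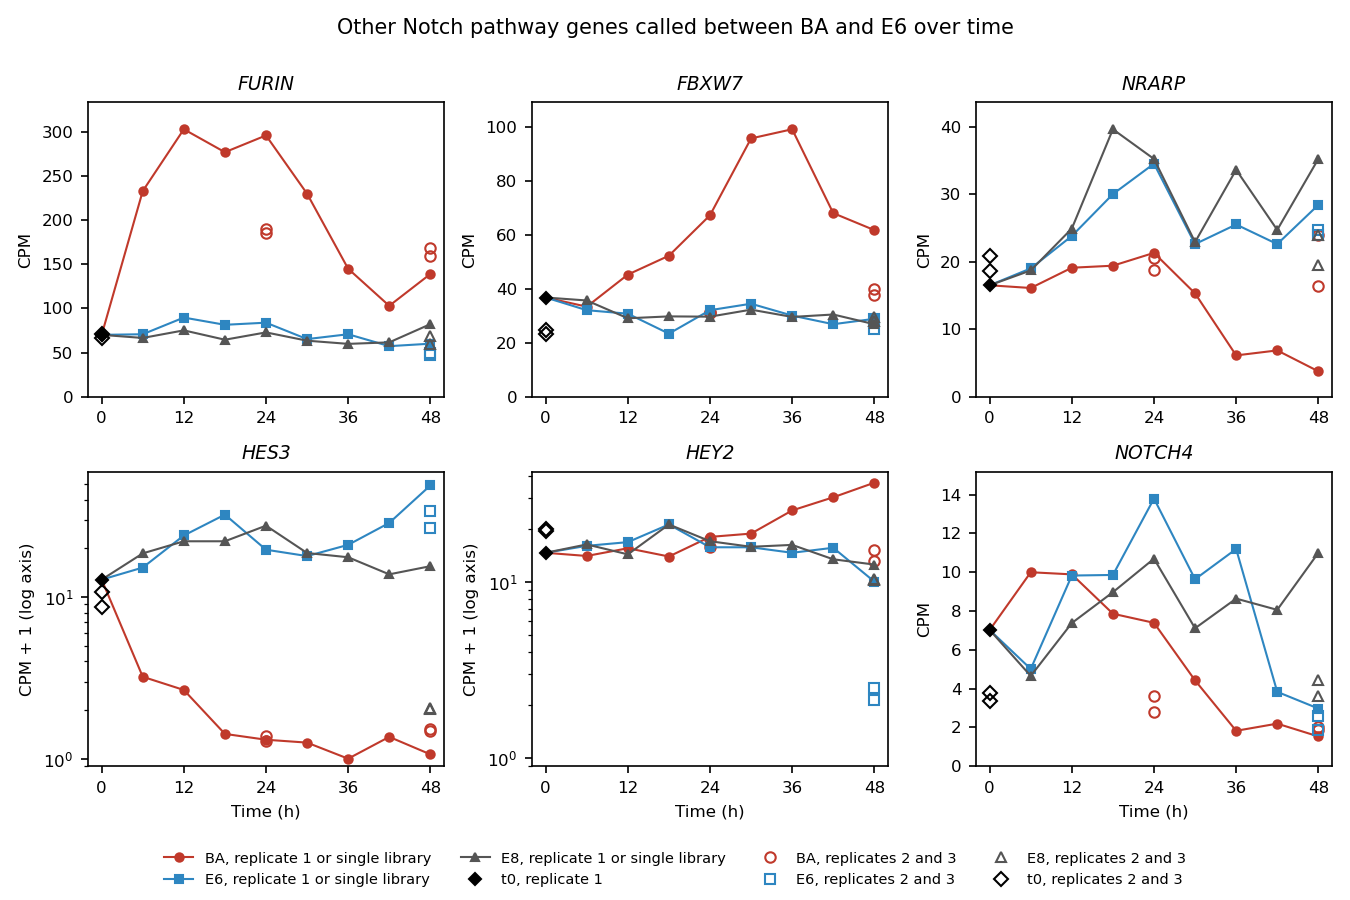
CPM of the 6 other pathway genes with the smallest p in the time course of BA with E6 (log axis with 1 CPM added for HES3 and HEY2), drawn as for the 9 genes. FURIN in BA stays above both media at all 8 hours, HES3 in BA stays below both, and NRARP in BA falls to 3.77 CPM at 48 h in the time series.

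NRARP, a feedback inhibitor induced by Notch, was below E6 in BA at all 8 hours and read 3.77, 23.9 and 16.4 CPM in BA at 48 h, against 28.4, 24.0 and 24.7 CPM in E6 (averaged log2 difference -1.11, edgeR adjusted p 2.37e-05). FBXW7, which targets the NOTCH intracellular domain for degradation, reached 99.2 CPM in BA at 36 h, against 23.4 to 34.5 CPM in E6 (1.07, adjusted p 6.13e-06). HEY2, a paralog of HEY1, stayed between 13.0 and 17.1 CPM in BA to 24 h in the time series. It reached 35.8 CPM at 48 h, where E6 read 9.08 CPM (0.43, edgeR adjusted p 0.000251). Replicates 2 and 3 of BA showed no such rise, with 16.6 and 14.8 CPM at 24 h and 14.2 and 12.2 CPM at 48 h. Those of E6 at 48 h read 1.49 and 1.13 CPM. The HEY2 call held in 14 of 15 alternatives and was lost with all libraries and no term for the replicate set (edgeR adjusted p 0.0979). NOTCH4 read 1.53 CPM in BA at 48 h, against 2.97 CPM in E6 (-0.71, adjusted p 0.00136). DTX1, a ubiquitin ligase that binds NOTCH, was also called at 24 h, with 8.37, 14.7 and 13.3 CPM in BA, against 3.77, 6.89 and 5.95 CPM at t0 (1.17 ± 0.26, adjusted p 0.0422, lost without 5 of the 6 libraries in turn).

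For each gene, the genes with the most similar log2(CPM + 1), up to 3, over the 25 libraries of the time series were taken from 15233 genes with a mean of at least 1 CPM. The libraries share medium, hour and depth, so these correlations are a description only. HEY1 was most like FURIN (r = 0.977), ACADL and MANEAL, and over the 10 libraries of replicates 2 and 3 those r values were 0.853, 0.799 and 0.876. HES1 was most like CRIP2 (0.952), KCNC4 and PSD4, at 0.359, 0.756 and 0.001 over the 10 libraries. DLL3 was most like TMEM255A (0.938), LRRC2 and LZTS1, at 0.575, 0.74 and -0.342 there. NOTCH3 was most like MVB12B (0.919), GSE1 and PLEC, at 0.705, 0.736 and 0.717. LFNG was most like FAM155B (0.944), FAM131B and PGBD5, at -0.053, 0.273 and 0.093. JAG1 was most like WDFY2 (0.909), PLEKHH1 and SOX9, at 0.373, 0.787 and 0.826. DLL1 was most like ADAM12 (0.858), PKNOX2 and SCD5, at 0.853, 0.845 and 0.838. NOTCH1 was most like PFAS (0.879) and RP11-114H24.2, and NOTCH2 like ARHGAP5 (0.958), MYO9A and QKI; PFAS had r = -0.818 over the 10 libraries and ARHGAP5 -0.163. Among the 9 genes themselves, HEY1 and HES1 had r = 0.87 in the time series and -0.06 over the 10 libraries, and HEY1 and NOTCH3 0.83 and 0.60.

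Some markers of other cell types were higher in BA than in the control media. Endothelial and blood markers (6 genes) summed to 102 to 443 CPM in BA, 77.7 to 189 CPM in E6 and 119 to 168 CPM in E8 over the time series. KDR, also a gene of early mesoderm, carried most of that sum in BA, with 71.0 CPM at 6 h and 437 CPM at 42 h. CDH5 and TEK were below E6 in BA at 7 of 8 hours each and PECAM1 at 5 of 8, while PECAM1 and TAL1 did not pass 0.83 and 0.823 CPM in BA. Smooth muscle and fibroblast markers (6 genes) summed to 382 to 912 CPM in BA, against 230 to 348 CPM in E6 and 208 to 342 CPM in E8, with DCN at 0.242 CPM or less in BA. Of these, COL1A2 read 74.9 CPM at 6 h and 771 CPM at 42 h in BA. COL1A2 and TAGLN were above E6 in BA at 7 of 8 hours, PDGFRB at 8 and COL1A1 at 5. ACTA2 was below E6 and below E8 in BA at 6 of 8 hours each. HEY1, HES1 and NOTCH3 were at their lowest of the BA time series at 42 h, where KDR and COL1A2 were at their highest. Other markers of the same lists went the other way. TEK (3.22 CPM), TAGLN (21.2 CPM), COL1A1 (26.9 CPM) and DCN were also at their lowest in BA at 42 h, and PDGFRB was highest at 30 h. Amnion and trophoblast markers (7 genes) summed to 83.5 to 362 CPM in BA, 1.47 to 6.49 CPM in E6 and 1.31 to 5.02 CPM in E8. Of these, KRT7 in BA was below E6 at 7 of 8 hours and below E8 at all 8. Each of the others was above E6 at all 8 hours, with CDX2 at a median of 0.848 CPM in BA. Whether cells of these types were present, and their part in the levels of HEY1, HES1 and NOTCH3, was not tested.

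The authors' deposited table gives a DESeq2 log2 fold change for 4 groups and names no reference in its header. Its values correlated across genes at r = 0.969 to 0.976 with those computed here against t0, more than against any other group, so t0 was taken as its reference. In the authors' deposited table HEY1 had a log2 fold change of 2.42 in BA at 24 h (adjusted p 0.000148) and 1.44 at 48 h (0.319). The authors' deposited table gives DLL3 as -1.74 in BA at 24 h (adjusted p 0.00245), 2.53 in BA at 48 h (0.0109), 0.68 in E6 at 48 h (0.0442) and 1.52 in E8 at 48 h (1.92e-06). For HES1 the authors' deposited table gives 1.19 in BA at 24 h, 1.29 in BA at 48 h and 1.26 in E8 at 48 h, each with an adjusted p below 0.05, and 0.98 in E6 at 48 h (0.149). LFNG has 1.35 in E6 and 0.59 in E8 in the authors' deposited table, with adjusted p of 0.0338 and 0.0464. In BA at 48 h it has -0.35 there (adjusted p 0.921). In all, the authors' deposited table calls 3 of the 9 genes in BA at 24 h, 2 in BA at 48 h, 2 in E6 and 3 in E8, against 1.62%, 3.49%, 3.85% and 1.39% of its 55889 genes. That is a wider set than the 21554 genes tested here, which passed a filter on low counts, so these shares are not comparable with the others.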

How the data were processed

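Poly(A) RNA of 35 libraries was analysed from raw counts per gene, which the authors made with featureCounts on hg38, per the submitters' processing notes; the versions are not given in the sources used here, and the gene symbols are of GENCODE 23 per the file headers. The authors' deposited table of DESeq2 log2 fold changes, p-values and adjusted p-values was used as given. Totals were 11793453 to 37191969 counts; intervals are exact Poisson 95% intervals and cover counting error only. The strand setting of the counting is not given in the sources used here. Each library was tied to its group by its own label.

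The 9 genes, the pathway lists and the markers were chosen with earlier results of these data known. Of the other pathway genes, those called in a comparison are named, up to the 6 with the smallest p, and for each of the 9 genes the 3 with the highest Pearson r over the time series; 1 of these is not reported here.

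Groups were compared with the edgeR 4.0.16 quasi-likelihood F-test (R 4.3.3, limma 3.58.1, TMM scaling, filterByExpr with a minimum count of 10 and a minimum total of 15) over the 15 libraries of the 5 replicated groups, with Benjamini-Hochberg adjustment over all genes tested and a threshold of 0.05. The time courses used 16 libraries and natural spline curves for each medium (3 degrees of freedom); a gene had to pass the count minimum in at least 3 libraries. Both procedures were tested on simulated data. Replicate numbers were checked for pairing, with a limit of r = 0.1. In all 30 pairs of libraries with the same number, deviations from the group means correlated at r = 0.622 to 0.918. Libraries with different numbers were not compared, and the gap between replicate 1 and the others enters these deviations. The check therefore cannot tell pairing by number from that gap. Blocked values stand beside results whose call they change. Alternatives were the block, a term for replicate 1, replicates 2 and 3 alone, only the groups compared, median-of-ratios size factors, no count filter, DESeq2 1.42.0 (group comparisons only), a spline with 2 degrees of freedom, all libraries, each library or hour left out, and, chosen after seeing the data, the time courses without E6 at 18 h or without BA at 42 h. Exon lengths and gene positions are of GENCODE 29 (GRCh38). Levels per kilobase are CPM divided by exon length. Tables and figures were made with Python 3.11.15, pandas 2.3.3 and matplotlib 3.10.9.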

Additional observations from a re-analysis of the deposited data

Results flagged for a closer look

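The difference between BA and E6 changed with time for 3 of the 9 genes, by the edgeR quasi-likelihood test of the interaction of medium and time. For DLL3 the adjusted p was 0.000105, with BA over E6 at 0.0546 at 24 h and 56.9 at 42 h. For LFNG it was 0.0011, with BA over E6 at 1.63 at 6 h and 0.248 at 48 h. For JAG1 it was 0.0214, with BA over E6 at 0.907 at 6 h and 0.367 at 48 h.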

How the results depend on the processing

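The counts of the 9 genes called moved with how replicate 1 was treated. They are given in this order: first BA with E6 (48 h), next BA (24 h) over t0, then the later BA group (48 h) over the earlier one (24 h), then E6 with E8 (48 h), and last E8 (48 h) over t0. They were 1, 0, 1, 0 and 0 in the fit reported, 4, 4, 3, 1 and 1 with the replicate block, 5, 4, 3, 1 and 1 with a term for replicate 1, and 5, 6, 6, 5 and 5 in replicates 2 and 3 alone. With only the libraries of the groups compared they were 0 for BA with E6 at 48 h and 0 for BA at 48 h with BA at 24 h. With no count filter the first was 0 (LFNG adjusted p 0.0594). DESeq2 called 3 genes for BA with E6, 1 for BA at 24 h with t0 and 1 for E8 with t0. Leaving out 1 library at a time gave 0 to 1 for BA with E6, 0 to 1 for BA at 48 h with BA at 24 h and 0 to 1 for E8 with t0. Over all genes, calls in the same order were 759, 339, 98, 31 and 30 of 21554 in the fit reported. They were 4760, 1929, 2158, 612 and 5510 with the block, and 5175, 2207, 2659, 722 and 5971 with a term for replicate 1. In replicates 2 and 3 alone they were 7999, 4511, 7441, 4025 and 11190. With only the groups compared they were 76, 114, 0, 0 and 0, and by DESeq2 1561, 818, 645, 223 and 1228. With no count filter 573 of 40033 genes were called for BA with E6 at 48 h. Leaving out 1 library at a time gave 257 to 670 genes for BA with E6, 3 to 175 for BA at 48 h with BA at 24 h and 0 to 624 for E8 with t0.

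The averaged DLL3 difference of BA from E6 over time, -0.14 as reported, changed sign to 0.1 with all libraries, 0.21 with the replicate block by set and 0.67 with the simpler spline, and ran from -0.84 to 0.43 when 1 hour was left out (0.17 without 6 h, 0.33 without 12 h, 0.3 without 18 h, 0.1 without 30 h). It is an average over a curve that crosses 0, and its test was called in each case, with adjusted p up to 0.00218 (edgeR). The change of the media's difference with time was called for 1 gene rather than 3 with all libraries and no term for the set. Over all genes that setting called 57 of 19902, against 1485 of 17938 in the fit reported. For E6 with E8 over time, all libraries with the block by set gave 1 call for the difference and 1 for its change with time, against 0 and 0. Except where a value is given here or in the report, the cause of these moves was not tested. Depth limits DLL1 and DLL3 in BA before 30 h, where 5 and 6 counts were the lowest.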
